A study of Mus musculus with 21 samples.

Results

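The 42 genes described here encode proteins that copy DNA and carry cells through mitosis. They were given as a list of symbols and looked up in the deposited expression table of murine pancreatic ductal adenocarcinoma (PDAC) lines. All 42 were found among its 34478 genes, and all 42 were among the 19300 genes that passed the filter on low values. The list did not use any measured value of these samples, although it was drawn up with earlier results of these data known.

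Cells license replication origins by loading the MCM helicase, fire them once cyclin E and cyclin A kinases are active, and then switch to cyclin B kinase for mitosis. Genes of the first step are classically driven by E2F factors at the start of S phase, and genes of mitosis by the MuvB complex with MYBL2 and FOXM1 in G2. ERK signaling feeds into this program through cyclin D1, so MEK inhibition is known for holding cells in G1. In bulk RNA, fewer cycling cells and less RNA of these genes per cell cannot be told apart.

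The samples were 21 RNA libraries from 6 low-passage primary lines, numbered #3, #4, #6, #7, #9 and #10, each from the tumor of a different mouse. All mice were Ptf1a wt/Cre with both alleles of Trp53 floxed (Trp53 loxP/loxP). Parental cells were treatment-naive (6 samples), and resistant cells (6) had been taken through rising doses of the MEK inhibitor (MEKi) trametinib and were kept at 100 times their IC50. Reverting cells had been resistant and were then passaged without drug for 5 passages (P5, lines #3, #7 and #9) or 12 passages (P12, 6 lines). All states carried the same engineered alleles, so parental cells too were targeted for loss of Trp53. Cre was under the control of the pancreatic Ptf1a locus. Trametinib was kept in the medium of the resistant state alone. By the study's account resistant populations grew out from a single clone, which rests on genome sequencing of lines #3 and #9. For P5 of lines #7 and #9 one label gives 12 drug-free passages where the sample names give P5, and the names were followed. There is 1 library per line and state. The lines therefore served as replicates, and p-values measure the spread between lines.

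Normalized counts per library, over all genes, added up to 28.6 to 37.1 M (M for mega). The depth estimated from the spacing of low values was 23.9 to 42.5 M reads. This estimate is rough, since only 62.9% to 77.1% of low values lay on that spacing. Of the epithelial markers, Epcam was listed at 0 in all samples but 1. The other 4 (Cdh1, Krt8, Krt18 and Krt19) made the list's sum 15800 to 251136 normalized counts in parental cells and 644 to 209832 in resistant cells. Fibroblast markers summed to 76.5 to 10384 in parental and 472 to 503700 in resistant cells, and leukocyte markers to 136 to 244 and 202 to 2896. Endothelial markers (4 genes) summed to 36.8 to 166 in parental and 15.8 to 2753 in resistant cells. Of these Tek, an angiopoietin receptor, passed the stricter rule given below, higher in resistant than in parental cells (5.90 on the log2 scale, limma adjusted p = 0.0020) and lower at P12 than in resistant cells (-5.84, adjusted p = 0.0043), while Cdh5 was at most 1.61 normalized counts in resistant cells. The part of any of these cell types in the results below was not tested. Libraries stood apart in the mean level of the 42 genes: parental #7 lay below the other 5 parental samples, resistant #7 was the highest of all 21 samples, and resistant #9 and P12 #10 were the lowest. Results that rest on line #7 are given with and without it.

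**Figure D1:**
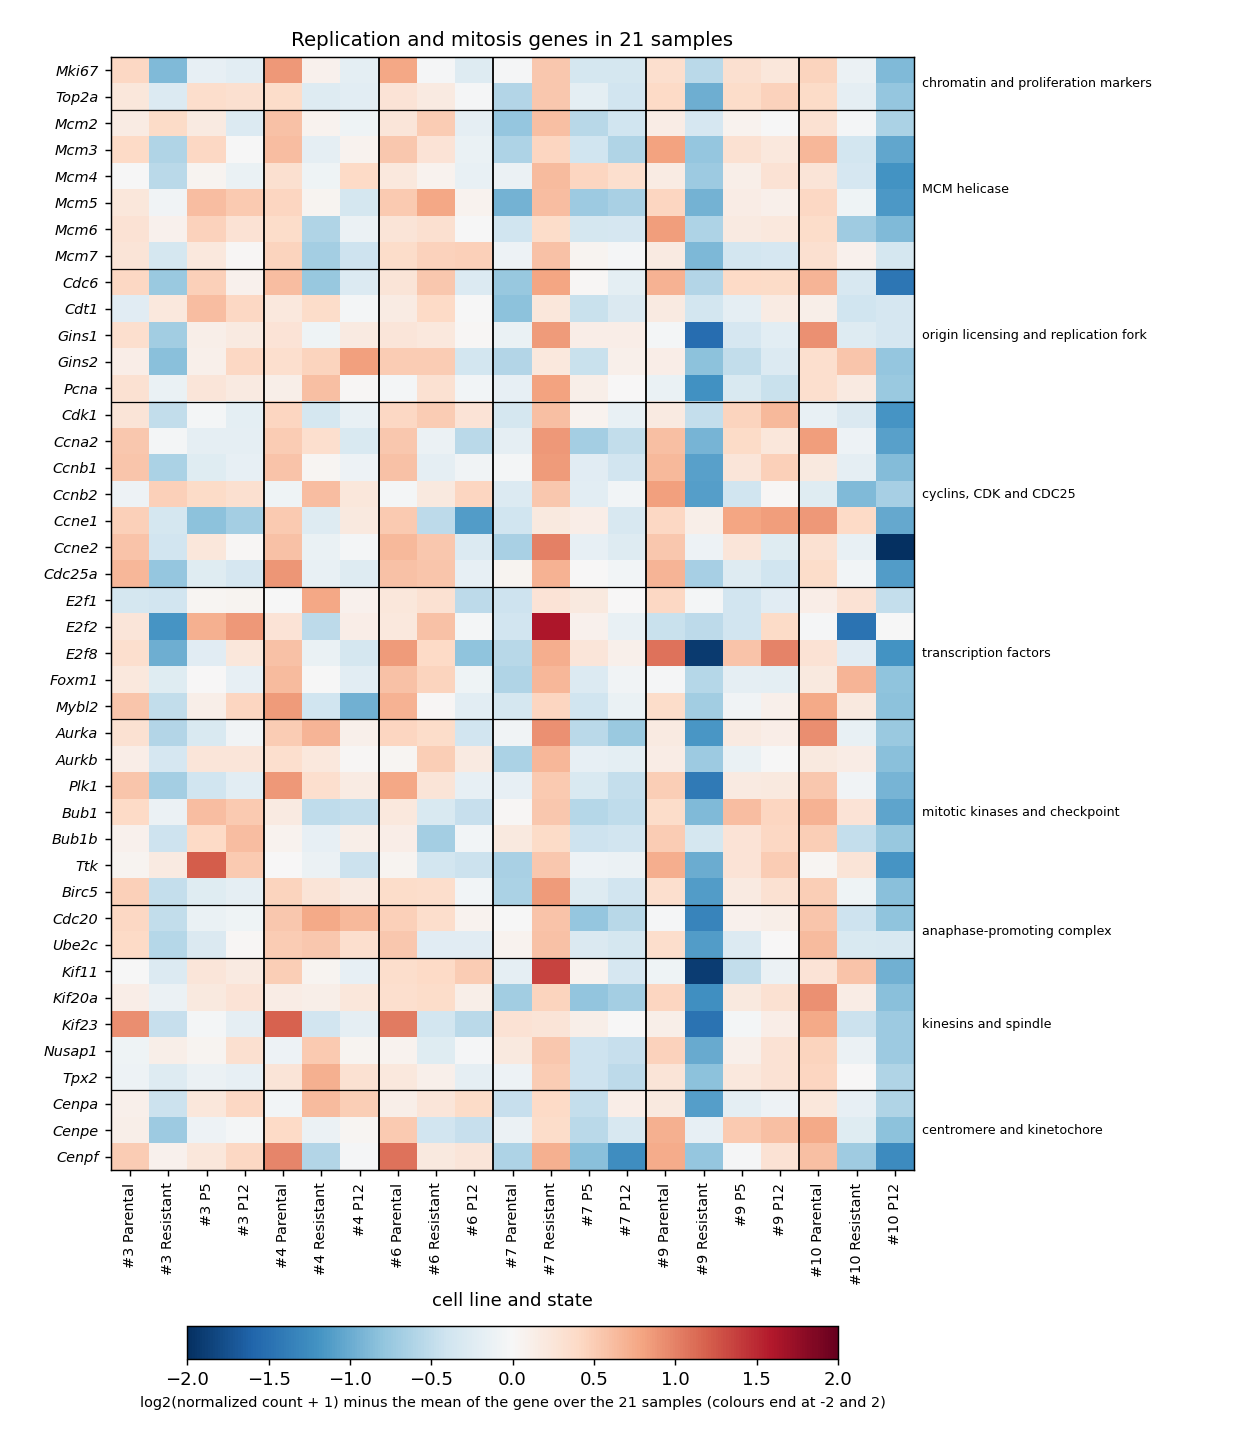
Level of each of the 42 genes (rows, grouped by role) in each of the 21 samples (columns, grouped by cell line), as log2(normalized count + 1) minus the mean of that gene over the 21 samples. Resistant #7 is red in nearly all rows, and resistant #9 and P12 #10 are blue in nearly all rows.

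The first comparison asked whether cells that had become resistant to trametinib carried less RNA of replication and mitosis genes than the parental cells they came from. Kif23 fell, and it was the 1 member of 42 that changed at an adjusted p below 0.01 with a log2 difference beyond 1 (limma, Benjamini-Hochberg over all genes tested), where 5.3% of all genes tested did. Without the limit on size, at an adjusted p below 0.05, Kif23 was again the 1 member that was lower and 0 members were higher, beside 7.9% and 7.73% of all genes. The median over the 42 genes was -0.35 on the log2 scale, against -0.005 over all genes, and 37 of 42 had a negative difference. At an unadjusted p below 0.05 there were 10 members, all lower (Mki67, Mcm3, Ccnb1, Cdc25a, Mybl2, Plk1, Bub1b, Ube2c, Kif23 and Cenpe), while 29.2% of all genes reached that p in either direction. This count rested on the lines included: it was 2 without line #3, 6 without #4, 5 without #6, 21 without #7, 3 without #9 and 6 without #10, all lower. Of all genes, 24.9%, 24.9%, 23.6%, 30.3%, 31.3% and 24.7% reached that p in these fits, in either direction. The median of the members moved most without line #7, to -0.64 with 41 of 42 negative, and without #9, to -0.21 with 27 negative. Over all genes it was 0.01 and 0.004 in these 2 fits.

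Kif23 encodes the mitotic kinesin MKLP1, which with RACGAP1 forms the centralspindlin complex of the midzone and is needed for cytokinesis. In parental cells its normalized count was 5105 at the lowest (line #9), 8425 at the median and 10644 at the highest (line #4). In resistant cells it was 1690 (line #9), 3548 and 5597 (line #7). The highest resistant sample thus lay above the lowest parental sample, and the groups overlapped, as they did for all 42 members (5.99% of all genes did not overlap). Within lines it was lower in all 6, although in line #7 the difference was only -0.03. The fitted difference was -1.19 on the log2 scale (SE 0.24, limma adjusted p = 0.0024). The adjusted p rose above 0.01 without line #3 (0.023), #4 (0.018), #6 (0.017) or #10 (0.012) and stayed below 0.05 in each case.

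The promoter sequences of Kif23, of Cdc25a, whose parental and P12 samples did not overlap, and of Mki67, the most used marker of proliferation, are shown for the 150 bases before each start. They come from RefSeq on GRCm38.p6 and are written 5′ to 3′ on the strand of the gene: Kif23 at chr9:61946800-61946949 on the minus strand, Cdc25a at chr9:109875429-109875578 on the plus strand and Mki67 at chr7:135716380-135716529 on the minus strand. Capitals mark the letters TTTGAA (the cell cycle homology region, CHR), CCAAT, or an E2F site spelled TTTCCCGC, TTTCGCGC, TTTGCCGC or TTTGGCGC, on either strand.
Kif23: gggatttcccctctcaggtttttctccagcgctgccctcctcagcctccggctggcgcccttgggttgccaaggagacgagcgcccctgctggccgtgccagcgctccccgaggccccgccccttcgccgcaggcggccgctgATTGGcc
Cdc25a: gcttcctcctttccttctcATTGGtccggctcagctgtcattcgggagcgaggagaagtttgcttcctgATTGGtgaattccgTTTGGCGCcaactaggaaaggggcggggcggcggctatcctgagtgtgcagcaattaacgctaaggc
Mki67: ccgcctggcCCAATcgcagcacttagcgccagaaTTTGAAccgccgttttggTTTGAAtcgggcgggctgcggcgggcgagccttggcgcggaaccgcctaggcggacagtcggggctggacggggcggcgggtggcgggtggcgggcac

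In these stretches Kif23 held 1 CCAAT box, read as ATTGG on the printed strand. Its CHR letters did not lie within the printed bases but were found in the 300 bases searched below. Cdc25a held 2 CCAAT boxes and 1 E2F site, and Mki67 held 1 CCAAT box and 2 CHR motifs. Over 300 bases (250 before and 50 after the start), 33 of the 42 members could be matched in the promoter table. The CHR letters occurred in 17 of the 33 (51.5%) and in 20.2% of 27025 genes, the CCAAT box in 26 (78.8%) and in 41.1%, and an E2F site in 9 (27.3%) and in 2.61%. Among MCM helicase genes 4 of 5 matched promoters held an E2F site and 1 held the CHR letters. Among mitotic kinase and checkpoint genes 0 of 6 held an E2F site and 4 held the CHR letters. A match of letters is a description and no binding was measured here.

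**Figure D2:**
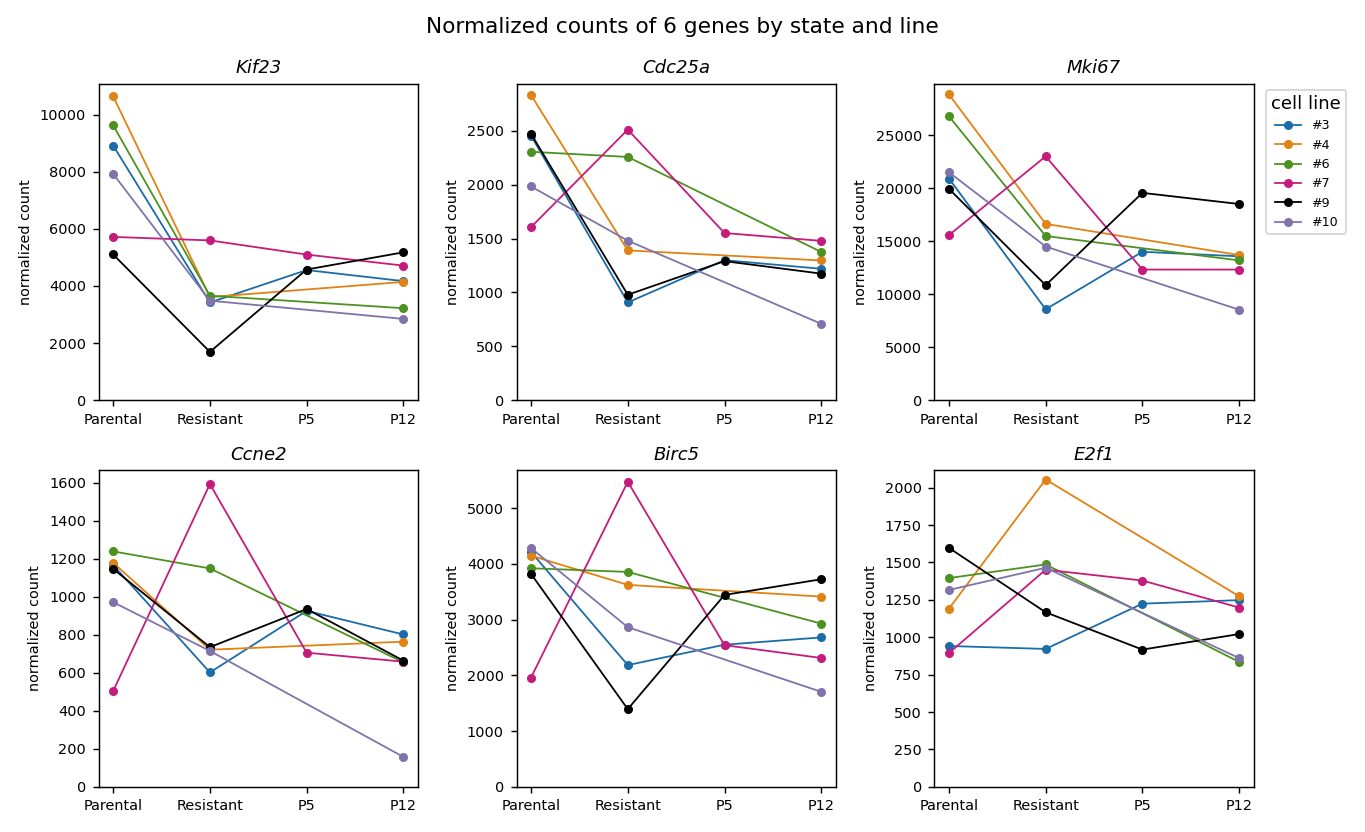
Normalized counts (vertical axes, each starting at 0) of Kif23, Cdc25a, Mki67, Ccne2, Birc5 and E2f1 in the 4 states, with 1 line of points for each cell line. Kif23 is lower in the resistant than in the parental sample in each line, while the other 5 genes are higher in resistant #7 than in parental #7.

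By role, Kif23 was the only gene of any group past the test in resistant cells, and the rest are given by their values. Mki67 (Ki-67, a protein of the mitotic chromosome surface) had normalized counts of 15559, 21200 and 28839 (lowest, median and highest) in parental and of 8568, 14984 and 22996 in resistant samples. The groups overlapped, the difference was -0.63 (SE 0.22), and the adjusted p in limma was 0.061. Resistant #7 lay above the parental median, and the other 5 resistant samples below it. Top2a, which untangles DNA, had a difference of -0.34.

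The MCM helicase, which unwinds DNA at the fork, had differences from -0.61 (Mcm3) to 0.08 (Mcm2), with 5 of 6 negative. Mcm3 was at 4239, 9680 and 11322 normalized counts in parental and at 3782, 5361 and 8749 in resistant samples (SE of the difference 0.27, adjusted p = 0.14 in limma). The lowest parental sample was #7, which lay below the resistant median, so these groups overlapped too. Mcm2 was at 3951, 7783 and 10156 in parental and at 5358, 7924 and 10244 in resistant samples, with 3 lines higher and 3 lower. Mcm4, Mcm5, Mcm6 and Mcm7 had -0.30, -0.12, -0.48 and -0.38. For the genes that load or accompany the helicase (Cdc6, Cdt1, Gins1 and Gins2) and for Pcna, the sliding clamp, the median was -0.13 and the range -0.51 (Gins1) to 0.13 (Cdt1). Cdc6, the loader of the helicase, had -0.50 and Pcna 0.02. Pcna spanned 2980 (#9) to 12161 (#7) normalized counts in resistant cells against 6166 to 8788 in parental cells, so its resistant samples lay on both sides of the parental range.

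All 7 genes of the cyclin group had negative differences, from -0.62 for Ccnb1, the cyclin of mitotic entry, to -0.04 for Ccnb2. Ccnb1 was at 4355, 6587 and 7000 normalized counts in parental and at 2094, 3940 and 8047 in resistant samples. Its highest sample overall was resistant #7 and its lowest resistant #9. Cdk1, the kinase that cyclins A and B activate, had -0.21, and the cyclins E had -0.47 (Ccne1) and -0.20 (Ccne2). Cdc25a, the phosphatase that activates cyclin-dependent kinases around the entry into S phase, was at 1607, 2381 and 2833 normalized counts in parental and at 907, 1435 and 2512 in resistant samples (difference -0.60, SE 0.24, adjusted p = 0.096 in limma). Among transcription factors the differences ran from -0.79 for E2f8, a repressor of E2F targets, to 0.21 for E2f1, an activator of them. Mybl2, the B-MYB factor that acts with MuvB, had -0.64 (SE 0.26, adjusted p = 0.098 in limma), while Foxm1, which acts with it in G2, had -0.01. E2f2 had the largest SD of the 42 genes in resistant cells on the log2 scale (1.16), with values from 220 (#10) to 1876 (#7) normalized counts, against 449 to 740 in parental cells.

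The mitotic kinases and checkpoint genes ranged from -0.69 for Plk1 (SE 0.29, adjusted p = 0.11 in limma) to 0.04 for Aurkb, the kinase of the chromosomal passenger complex. Plk1, which acts from mitotic entry to cytokinesis, was at 2349, 3851 and 4783 normalized counts in parental and at 985, 2820 and 3775 in resistant samples, and the highest resistant sample lay below the parental median. Bub1b and Bub1 of the spindle checkpoint had -0.53 and -0.48, Aurka -0.37 and Ttk -0.13. Ube2c, the ubiquitin-conjugating enzyme of the anaphase-promoting complex, had -0.60 and its activator Cdc20 -0.42. Of the kinesin and spindle genes, the median was -0.19, so Kif23 lay far from Kif11, the motor that keeps the spindle bipolar (-0.11, SE 0.37), and from Kif20a (-0.25), Nusap1 (-0.19) and Tpx2 (-0.12). Cenpf and Cenpe of the kinetochore had -0.73 and -0.60, and Cenpa, the centromeric histone, -0.09. Cenpf was at 2940, 7221 and 9598 normalized counts in parental and at 2641, 3895 and 7393 in resistant samples, so parental #7 lay among the resistant samples.

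The 6 lines did not share a direction. In line #7, 41 of 42 genes were higher in resistant than in parental cells, with a median of 0.93, and Kif23 was the exception. In line #9, all 42 were lower, with a median of -1.30, and 28 of them by more than 1 on the log2 scale. Lines #3, #4, #6 and #10 had medians of -0.59, -0.48, -0.10 and -0.56. Over all genes the share that was higher in resistant cells lay between 46.7% and 50.8% in the 6 lines. With 1 sample per state, the difference between lines could not be tested.

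Parental as well as resistant samples stood apart in these lines. Birc5 (survivin, a member of the chromosomal passenger complex) was at 1960 normalized counts in parental #7, where the other 5 parental samples lay between 3818 and 4280. In resistant #7 it was at 5471, the highest of the 6, and in resistant #9 at 1394, the lowest. E2f8 was at 3133 in parental #9 and at 388 in resistant #9, the lowest difference of any member within a line (-3.01). Kif11 was at 14867 in resistant #7 and at 1573 in resistant #9. The SD between lines on the log2 scale had a median over the members of 0.35 in parental and 0.58 in resistant cells, beside 0.51 and 0.72 over all genes.

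**Figure D3:**
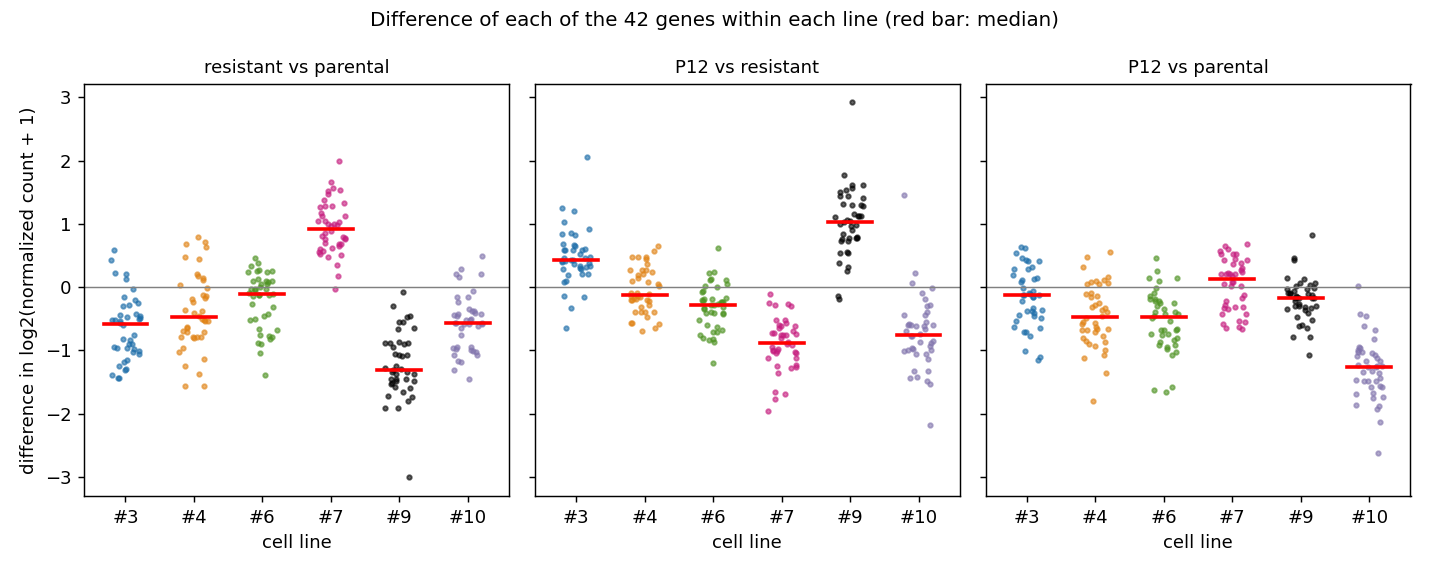
Difference in log2(normalized count + 1) between 2 states within each cell line, with 1 point for each of the 42 genes and a red bar at their median, for resistant vs parental, P12 vs resistant and P12 vs parental. Line #7 lies above 0 and line #9 below 0 in the first panel, both switch sides in the second, and line #10 lies lowest in the third.

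Without line #7, 12 members were lower in resistant than in parental cells at an adjusted p below 0.05 in limma (7.84% of 18828 genes were), and 0 were higher (7.76%). They were Mki67, Mcm3, Ccna2, Ccnb1, Cdc25a, Mybl2, Plk1, Bub1b, Ube2c, Kif23, Cenpe and Cenpf, from -0.67 for Bub1b to -1.42 for Kif23. Cenpf had -1.14 (SE 0.29, adjusted p = 0.015) and Mki67 -0.86 (SE 0.22, adjusted p = 0.015). With the cell line as a block and without line #7, a choice made after seeing the data, 14 members were lower (12.5% of genes), and Kif23 and Cenpf, 2 of 42, passed the stricter rule (9.06%). The 12 genes came from every role group except that of origin licensing and the replication fork. Leaving out line #7 was 1 of 6 such omissions, and the other 5 each left 1 member lower.

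The second question was whether the genes returned after drug withdrawal. Between P12 and resistant cells 0 of 42 members changed under either rule in limma, where 2.13% of all genes passed the stricter rule and 3.2% were higher and 3.03% lower under the wider one. Mcm2 alone reached an unadjusted p below 0.05, with -0.46 (SE 0.21), and 19.8% of all genes reached it. The median over the members was -0.07, beside 0.02 over all genes. With upper quartile scaling both moved up, to 0.02 for the members and 0.11 for all genes, so the members still lay below. The member median also rested on the lines included. With all lines, 14 of 42 members were positive. Without line #7 the member median was 0.11, beside 0.01 over all genes, and 27 were positive. Without line #10 it was 0.08, beside 0.02 over all genes, and 28 were positive. Without line #9 it was -0.32, beside 0.02 over all genes, and 4 were positive. It stayed negative when line #3, #4 or #6 was left out.

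The median with all lines included hid opposite differences in the lines. In line #9, 40 of 42 members were higher at P12 than in resistant cells (median 1.04), and in line #3, 38 were (median 0.43). In line #7 all 42 were lower (median -0.88), and in line #10, 39 were (median -0.76). Lines #4 and #6 had -0.12 and -0.28. E2f8 in line #9 went from 388 to 2948 normalized counts, beside 3133 in its parental cells. In line #10, Ccne2, which encodes a cyclin E, was at 971 in parental, 715 in resistant and 158 in P12 cells. Resistant samples stand on one side of both comparisons made so far, so the values of the 2 comparisons are not independent.

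P12 was also compared with parental cells, which again shares samples with the comparisons above. No member passed either rule in limma (0 of 42, beside 0.114% of all genes under the stricter rule and 0.301% higher and 0.358% lower under the wider one). At an unadjusted p below 0.05 there were 14 members, all lower, where 15.3% of all genes reached that p. The median was -0.42, beside 0.03 over all genes, and 38 of 42 were negative. Without line #10 the median was -0.25 and 4 members reached the unadjusted p, where 12.8% of all genes did. Without line #6, 6 members reached it, where 9.46% of all genes did.

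Kif23 was at 2846, 4156 and 5179 normalized counts (lowest, median and highest) at P12, with a difference from parental cells of -0.96 (SE 0.24, adjusted p = 0.066). Cdc25a was at 709, 1258 and 1479 at P12, and every P12 sample lay below the lowest parental sample, 1607 in line #7. It was the 1 member whose groups did not overlap (1.52% of all genes), with a difference of -0.93 (SE 0.24, adjusted p = 0.079 in limma). With the cell line as a block, both passed, at adjusted p = 0.034 for Kif23 and 0.035 for Cdc25a, so 2 members were lower, and 2.98% of all genes were. In the block fit without line #7 they were joined by Mki67, so 3 were lower (2.61%). Without line #9, Kif23 passed the stricter rule (-1.16, adjusted p = 0.0067 in limma; 0.362% of genes) and Ccna2 was lower too (adjusted p = 0.042; 1.32%).

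Within lines, 9 members were lower at P12 than in the parental cells of all 6 lines, and 6.96% of all genes were. They were Mki67, Ccna2, Ccnb1, Cdc25a, Aurka, Plk1, Ube2c, Cenpe and Cenpf. Ccna2, the cyclin of S phase and G2, ran from 4789 to 9784 normalized counts in parental and from 2561 to 6397 at P12 (difference -0.87, SE 0.27, adjusted p = 0.13 in limma). Line #10 stood lowest, with 41 of 42 members below parental and 33 of them by more than 1 on the log2 scale (median -1.26). In lines #4 and #6 the median was -0.47, in #3 it was -0.13, in #9 -0.17 and in #7 0.13.

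By role, the cyclin group had the lowest median at P12 against parental cells, -0.74, and 5 of its 7 genes had an unadjusted p below 0.05 (15.3% of all genes did). The medians of the other roles lay between -0.24 for origin licensing and the fork and -0.56 for the centromere. All 6 MCM genes and all 7 mitotic kinase and checkpoint genes had negative differences. The 4 positive ones were those of E2f2 (0.22), Cenpa (0.10), Cdt1 (0.04) and Ccnb2 (0.04). Ccne2 was at 504, 1157 and 1238 normalized counts in parental and at 158, 661 and 801 at P12 (difference -0.85, SE 0.35, adjusted p = 0.25 in limma). Its lowest parental sample was #7, and the other 5 parental samples lay between 971 and 1238, above all P12 samples.

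**Figure D4:**
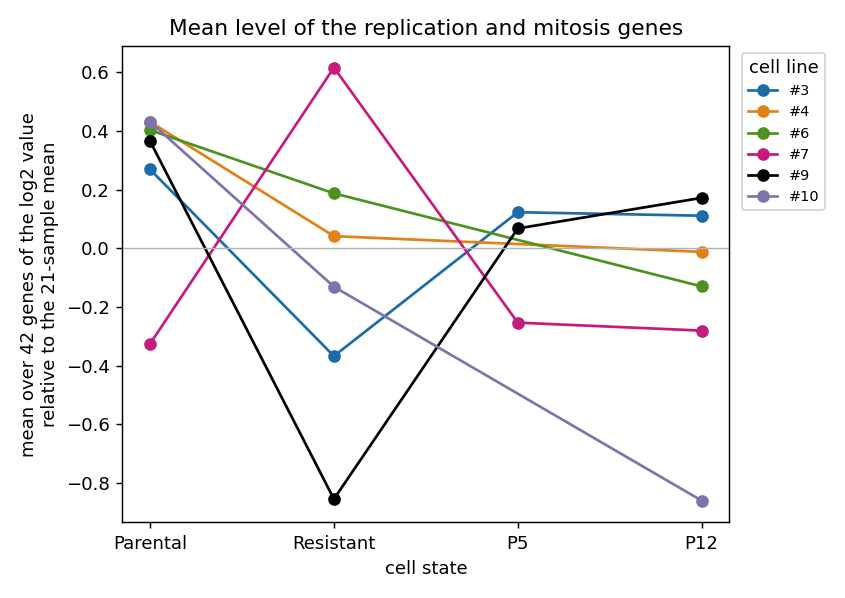
Mean over the 42 genes of the log2 value relative to the mean over the 21 samples (vertical axis), by state, with 1 line of points for each cell line. The parental samples lie between 0.27 and 0.43 except #7 at -0.33, and the lines cross in the resistant state, where #7 is at 0.62 and #9 at -0.85.

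At P5, with 3 lines, no member passed the tests. Of the 42 members 0 passed either rule against resistant cells (0.378% of all genes passed the stricter rule, 1.18% were higher and 0.891% lower), and 0 had an unadjusted p below 0.05 (15.4% of all genes). Against parental cells 0 passed as well (0.0259%, 0.00518% and 0.0415%), with 3 at an unadjusted p below 0.05 (10.4% of all genes). The normalized count of Cdc25a at P5 was 1300 for #3, 1551 for #7 and 1291 for #9, all below the lowest parental sample. Ube2c (2888, 2890 and 2917, against 3719 at the lowest in parental cells) and Kif23 (4558, 5101 and 4577, against 5105) did not overlap either. These are 3 of 42 members, a share near the 5.39% of all genes that did not overlap. The main fit has no term for the line, so it set P5 of 3 lines against resistant samples of 6 lines. Its median of the members against resistant cells was -0.03, with 20 of 42 positive. With the cell line as a block the median was 0.05, with 28 of 42 positive. In the main fit without line #7 it was 0.27, with 38 of 42 positive. Over all genes the median was 0.03 in each of these fits. Within lines the median of the members against resistant cells was 0.49 for #3, -0.83 for #7 and 0.91 for #9, and against parental cells it was -0.03, 0.14 and -0.29. In each of the 3 lines the member medians of P5 and P12 thus lay on the same side of the resistant sample, which both comparisons share. Ttk, a kinase of the spindle checkpoint, and E2f8 had the highest P5 differences from resistant cells (both 0.55, adjusted p not below 0.05).

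Other genes of the same processes and of the inhibited pathway put the size of these differences in view. Of 14 genes of ERK output, 12 fell in resistant cells (median -4.85 on the log2 scale) and 13 rose at P12 against resistant cells (median 5.20), both at an adjusted p below 0.05 in limma, where 7.9% and 3.2% of all genes did in those directions. The lowest differences in resistant cells were those of Etv4 (-10.46), Spry4 (-8.27), Etv5 (-8.09), Dusp4 (-7.80) and Dusp6 (-7.31). Dusp6, the ERK phosphatase, was at 5249 to 9449 normalized counts in parental and 4.49 to 681 in resistant samples, and at values this low the size of a log2 difference depends on the pseudocount. At P5, 10 of the 14 genes were higher than in resistant cells (1.18% of all genes were). When cell line was added as a block, 13 of the 14 were, and the matching share of all genes is not given here. At an unadjusted p below 0.05 there were 15.8% of all genes with the block and 15.4% without it. Ccnd1, the cyclin through which ERK drives entry into S phase, differed by -2.65 in resistant cells (SE 0.46, adjusted p = 0.00095) and by 2.01 at P12 against resistant cells (SE 0.46, adjusted p = 0.013). Ccnd1 and the genes named below except Tk1 and Cdkn2c were chosen after their values were seen.

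Of 38 other replication genes, 3 fell in resistant cells, a share near the 7.9% of all genes that did, and the median was -0.12. Tk1, thymidine kinase of the salvage pathway, had -1.20 (SE 0.24, adjusted p = 0.0028 in limma), and Rrm2, a subunit of ribonucleotide reductase, had -1.39 (SE 0.39, adjusted p = 0.021). Pold3, a subunit of DNA polymerase delta, had -0.56. Tk1 rose at P12 against resistant cells (0.88, adjusted p = 0.036), while Rrm2 was lower at P12 than in parental cells (-1.74, adjusted p = 0.045).

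Of 49 other mitosis genes, with a median of -0.15, Ect2 and Cks1b fell in resistant cells and Pttg1, which encodes securin, rose (0.67). These 2 and 1 of 49 are smaller shares than the 7.9% of all genes that fell and the 7.73% that rose. Ect2 is the exchange factor for RhoA that centralspindlin, and so the KIF23 protein, brings to the midzone. Its difference was -0.99 in resistant cells (SE 0.25, adjusted p = 0.011 in limma) and -1.09 at P12 (SE 0.25, adjusted p = 0.047), both against parental cells. Cks1b, a subunit that binds cyclin-dependent kinases, had -0.82 in resistant cells.

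**Figure D5:**
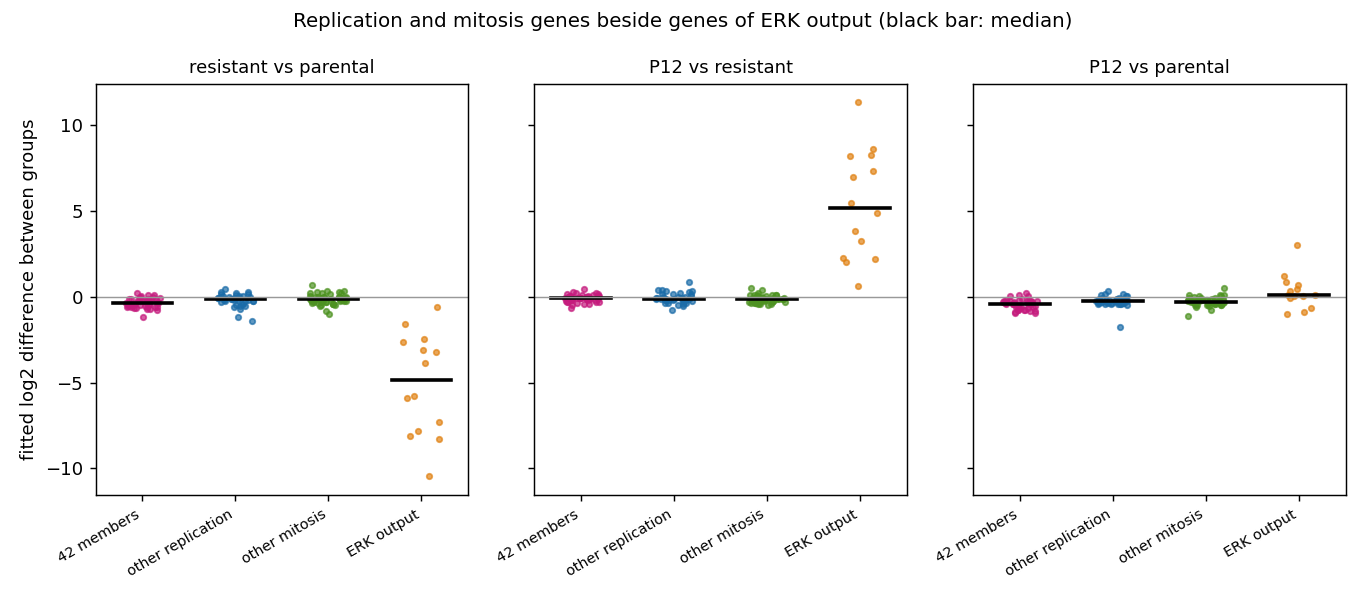
Fitted log2 difference (vertical axis) of each gene of 4 lists, the 42 members, other replication genes, other mitosis genes and ERK output, in 3 comparisons, with a black bar at the median. The first 3 lists stay close to 0, while ERK output has a median of -4.85 in resistant against parental cells and of 5.20 at P12 against resistant cells.

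Among 16 cell cycle inhibitors and RB family genes, Cdkn2c, which encodes the CDK4 and CDK6 inhibitor p18, rose in resistant cells by 1.93 (SE 0.29, adjusted p = 0.00027 in limma). Its normalized counts ran from 431 to 904 in parental and from 1393 to 4207 in resistant samples, so the groups did not overlap. It was still higher at P12 than in parental cells (1.33, SE 0.29, adjusted p = 0.043). Cdkn2b and Btg1 fell in resistant cells (-1.48 and -1.22) and rose at P12 against resistant cells (1.57 and 1.18). Cdkn2a differed by -0.71 in resistant cells without passing (adjusted p = 0.097; with the cell line as a block it passed, adjusted p = 0.0079) and rose at P12 against them (1.06, adjusted p = 0.029). Over this list 1 gene was higher and 2 were lower in resistant cells, beside 7.73% and 7.9% of all genes. At P12 against resistant cells 3 were higher (3.2% of all genes). With the block, 4 were lower in resistant cells and 5 higher at P12, but the matching shares of all genes are not given here. The block also raised the share of all genes at an unadjusted p below 0.05. It went from 29.2% to 37.8% for resistant against parental cells and from 19.8% to 27.2% for P12 against resistant cells.

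Across the 21 samples the members varied together. The median Pearson correlation between 2 members was 0.60, and 857 of 861 pairs were positive. These samples share lines and states, so the correlations are a description. The correlation of a member with the mean of the other members was highest for Birc5 (0.94), Mcm3 (0.93) and Top2a (0.92) and lowest for E2f1 (0.40), Ccne1 (0.45) and E2f2 (0.46). With the mean of each line removed, the median between pairs was 0.72. Outside the lists, the genes most like the mean of the members over the 21 samples included Asf1b (0.91), Spdl1 (0.90), Prr11 (0.89) and Nup35 (0.89). Of the other lists, the median correlation with the mean of the members was 0.74 for other mitosis genes, 0.65 for other replication genes, 0.25 for ERK output and -0.12 for inhibitors and the RB family.

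In the parental, resistant and P12 samples, state had a median share of 17.9% of the variance of a member and cell line of 17.5%. The share of neither had a median of 59.6%. Over all genes these medians were 19.8%, 35.8% and 36.6%. Each median was taken separately. The shares were not corrected for there being more lines than states, so they do not rank line against state. Kif23 had the largest share for state, 61.5%, ahead of Cdc25a (47.3%) and Mki67 (44.8%), and Ccnb2 the smallest, 0.346%.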

How the data were processed

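The authors sequenced stranded mRNA libraries, quantified transcripts with Salmon 0.12 and normalized gene counts with DESeq2 1.18, and the submitters' processing notes name mm10. The deposited table holds a signal per gene, the normalized count. Its values were not whole multiples of 1 step often enough to recover reads (62.9% to 77.1% of low values within 5%), so no count test was run. By the same rough step, 3 reads were worth an estimated 2.32 to 4.08 normalized counts, depending on the sample.

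The members and the other gene lists were chosen with earlier results of these data known. Values were moved to the log2 scale after adding a pseudocount of 1. The filter kept genes that reached 10 normalized counts in 3 or more samples. All 21 samples entered 1 fit of the 4 states in limma 3.58.1 (R 4.3.3, eBayes with trend, no covariate), with Benjamini-Hochberg adjustment over 19300 genes. The stricter rule was an adjusted p below 0.01 with a log2 difference above 1 or below -1, the wider one an adjusted p below 0.05. A gene whose groups did not overlap had every sample of one group below every sample of the other. Differences within lines used 1 sample per state. Variance shares came from sums of squares on log2 values of the parental, resistant and P12 samples, without P5 and without correction for the numbers of states and lines. The steps were tested on simulated data. Python 3.11.15, numpy 2.4.6, pandas 2.3.3 and matplotlib 3.10.9 were used.

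Same-numbered samples come from the same cell line, so the numbers pair them. Their deviations from the group means correlated on average at 0.24 for resistant and parental cells, 0.46 for P12 and resistant, 0.32 for P12 and parental, 0.52 for P5 and resistant and 0.28 for P5 and parental cells, and at -0.05 to -0.10 between different lines.

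All 42 members were described, with full values for those past the wider rule, for the extremes of each role and for samples with a large gap. Of other lists, genes past the stricter rule were named (5 at most per list), and outside the lists the 5 genes most correlated with the member mean, of which 1 is not reported here. The full genotype is not reported here either. Alternatives were pseudocounts of 0.5 and 8, no filter, a mean of at least 100, upper quartile scaling, the cell line as a block, no trend, fits of the compared states alone and each line left out. More than 1 sequencer model was used and the samples are not assigned to them, so no values within sequencing batches are given.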

Additional observations from a re-analysis of the deposited data

Results flagged for a closer look

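Among 126 combinations of a member and a state with 6 samples, 20 held a sample with a large gap to its neighbors (Dixon's test at 95%). Chance gives about 1 in 20, or 6.3, and the members vary together, so these are not independent. Parental #7 was low for 13 members. In normalized counts it was at 13595 for Top2a, 3951 for Mcm2, 4239 for Mcm3, 2341 for Mcm5, 877 for Cdc6, 606 for Gins2 and 4789 for Ccna2. It was at 489.9 for Ccne1, 504 for Ccne2, 1763 for Aurkb, 2349 for Plk1, 1960.4 for Birc5 and 2940.2 for Cenpf. The estimated depth of this library was 42.5 M reads (M for mega), the highest of the 21. Parental #9 was high for Ccnb2 (4837), and resistant #9 was low for Kif20a (2562). P12 #10 was low for Mcm4 (2992), Cdc6 (542), Ccne2 (158), Cdc25a (709) and Foxm1 (3255), and its estimated depth was 36.8 M reads.

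At least 90% of the members lay on one side in some lines and on the other side in others. For resistant against parental cells the median was 0.93 in line #7 and -1.30 in line #9. For P12 against resistant cells it was 0.43 in line #3 and 1.04 in line #9, but -0.88 in line #7 and -0.76 in line #10. For P5 against resistant cells it was 0.91 in line #9 and -0.83 in line #7. These differences between lines were not tested, since each line has 1 sample per state.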

How the results depend on the processing

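For resistant against parental cells, 0 members passed the stricter rule in a fit of those states alone, and 0 to 1 passed it when 1 line was left out. Under the wider rule 3 of 42 members were lower with upper quartile scaling (Kif23, Mki67 and Ube2c). In the main fit 7.9% of all genes were lower, and the share under upper quartile scaling is not given here. When 1 line was left out, 1 to 12 members were lower, with 12 only without line #7 (7.84% of genes). With the replicate block and without line #7, chosen after seeing the data, 2 passed the stricter and 14 the wider rule. For P12 against parental cells the replicate block gave 2 lower members, leaving out 1 line gave 0 to 2 lower and 0 to 1 past the stricter rule (1 without line #9), and the block without line #7 gave 3 lower. The block changed no other call among the 42 genes. The other alternatives kept these counts within 1.5 times. In the remaining comparisons all 15 alternatives gave 0 members. Their medians did change sign: between -0.32 and 0.11 for P12 and between -0.18 and 0.38 for P5, both against resistant cells. The median for resistant against parental cells lay between -0.64 and -0.21, that for P12 against parental cells between -0.52 and -0.25. Kif23 in resistant cells kept its direction and an adjusted p below 0.05 in all 15 (0.0014 to 0.023). The cause of these changes was not tested. The lowest member value was 158 normalized counts, above the 2.32 to 4.08 that 3 reads were estimated to be worth, so all members were detected in all samples.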
